A study of Drosophila melanogaster with 4 samples.

Results

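Histone H3 dimethylated at lysine 4 (H3K4me2) was examined in its shortest stretches, namely regions called at under 2 kb in both replicates of a chromatin immunoprecipitation and sequencing (ChIP-seq) experiment. They came from nuclei of Drosophila melanogaster larvae at the third instar, strain Oregon-R (Oregon-R-modENCODE), genotype wild type. The series held 2 H3K4me2 immunoprecipitates made with an Active motif antibody and 2 inputs, which are sonicated chromatin taken without an antibody. All 4 samples share the strain, genotype, stage and preparation. The inputs entered only through the authors' own calls. Members were chosen by length and by overlap: a region of replicate 1 under 2000 bp had to share at least 1 bp with a region of replicate 2 under 2000 bp. This gave 206 of 4752 enriched regions in replicate 1 (4.34%) and 206 of 4701 in replicate 2 (4.38%). They held 351 kb in replicate 1 and 348 kb in replicate 2, which was 1.66% and 1.68% of the marked sequence of those lists. Coordinates follow FlyBase release 5, and regions are given by position without genes, since the available gene table uses release 6 coordinates.

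In flies, lysine 4 of histone H3 is methylated by enzymes of the COMPASS family, which include Set1, Trithorax and Trithorax-related. The dimethyl form is a mark of chromatin around the promoters of active or poised genes, and it is also found at enhancers. Marked stretches can be short, at an isolated element, or run across several kb where promoters and enhancers lie close together. The experiment used homogenised larval tissue, so a region reports an average over many cell types. A strong mark in few cells and a weak mark in many cells cannot be told apart.

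Each list gave one score per region, which is the authors' own value, with no stated scale. It was used to rank and describe regions. Read counts were not at hand, so the depth behind each region is unknown. The labels do not say that the replicates came from separate larvae, and their spread may be technical. No test was run between sets of regions, because regions of one library are not replicates of a condition and 2 replicates are too few for one. Exact binomial 95% intervals are given for shares. Such intervals reflect counting error alone and take each region as independent of its neighbours.

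Most short regions of one library were not short in the other. Replicate 1 had 477 regions under 2 kb, of which 206 (43.2%, interval 38.7 to 47.8) met a short region of replicate 2. Replicate 2 had 448, of which 206 (45.98%, 41.3 to 50.7) met a short region of replicate 1. Regions of 2 to 5 kb stayed in their own length class more often, with 2715 of 2954 in replicate 1 (91.9%, 90.9 to 92.9) and 2715 of 2983 in replicate 2 (91.02%, 89.9 to 92.02). These 2715 reproducible regions of 2 to 5 kb are the comparison set used throughout. Of the short regions of replicate 1 that were not members, 187 met no region of replicate 2, 62 met a region of 2 to 5 kb and 22 met a longer one. In replicate 2 the corresponding numbers were 112, 114 and 16.

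The shortest region of any kind was 1301 bp in each replicate list, so members could only lie between that length and the limit of the rule. In replicate 1 their lengths ran from 1302 to 1998 bp with a median of 1726.5 bp, and in replicate 2 from 1303 to 1996 bp with a median of 1709.5 bp. The middle 50% lay between 1553.5 and 1875.5 bp in replicate 1 and between 1518 and 1856.75 bp in replicate 2. The 3 regions whose longer length was smallest were 2R 11127948 to 11129265 (1318 bp in replicate 1 and 1315 bp in replicate 2), 2L 8093000 to 8094346 (1347 and 1354 bp) and X 8383843 to 8385178 (1336 and 1385 bp). Just inside the limit of 2000 bp were 3RHet 66777 to 68774 (1998 and 1984 bp), 4 853579 to 855575 (1997 and 1823 bp) and X 2246704 to 2248700 (1997 and 1353 bp). Their scores were 1.37 and 1.11, 0.46 and 0.32, and 0.51 and 0.51. Just outside it were 2L 12503586 to 12505541 (1956 and 2000 bp), X 11290 to 13289 (2000 and 1837 bp) and X 8517741 to 8519740 (2000 and 1947 bp). Their scores were 0.40 and 0.41, 0.98 and 0.89, and 0.54 and 0.37. The regions on either side of the limit therefore had overlapping scores.

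How closely the paired calls coincided is given as a description, since members were chosen for overlap and short length in both lists, and short regions without a counterpart are not in these values. Of the 206 pairs, 204 overlapped nothing else in either list, and none had identical coordinates. The shared part was at least 50% of both regions in 204 pairs, and less at 2L 8093000 to 8094346 and X 8774979 to 8776711. The median shift of an edge was 88 bp and the 90th percentile 263 bp, against 55 bp and 256 bp for the regions of 2 to 5 kb. Because the members are shorter, the same shift takes a larger part of them. The shared sequence was a median of 88.3% of the sequence spanned by a pair, against 95.5% for the regions of 2 to 5 kb. The smallest shifts of both edges together were 17 bp at 2L 9237422 to 9239357, 20 bp at X 22409085 to 22410716 and 34 bp at 3R 3586579 to 3588072. Lengths ranked only loosely alike in both libraries, with a Spearman rho of 0.32 over 206 members and 0.91 over the 2715 regions of 2 to 5 kb. The members span a narrower range of lengths, and regions of one library share its depth and are not independent.

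Members were spread over all 6 chromosome arms, and 4 lay on other sequences, which held few regions of any length. There were 51 on 3R, 39 each on 2L, 2R and 3L, 30 on X and 4 on chromosome 4, the small chromosome that is largely packaged as heterochromatin. The density was 1.83 regions per Mb on 3R, 1.69 on 2L, 1.84 on 2R, 1.59 on 3L, 1.34 on X and 2.96 on chromosome 4. Counts per sequence were the same in both replicates. The rule brings them close, since members overlap between the lists, but does not fix them. Under the same rule, the regions of 2 to 5 kb on 2L numbered 491 in replicate 1 and 492 in replicate 2. Only 2 members lay on the assembled heterochromatin scaffolds, 1 on 2RHet and 1 on 3RHet, and 2 more on U, which holds sequence with no chromosome assigned. They were 4.17% of the 48 regions of replicate 1 on the scaffolds (interval 0.509 to 14.3) and 9.09% of the 22 on U (1.12 to 29.2), and both intervals span the 4.34% over all sequences.

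**Figure D1:**
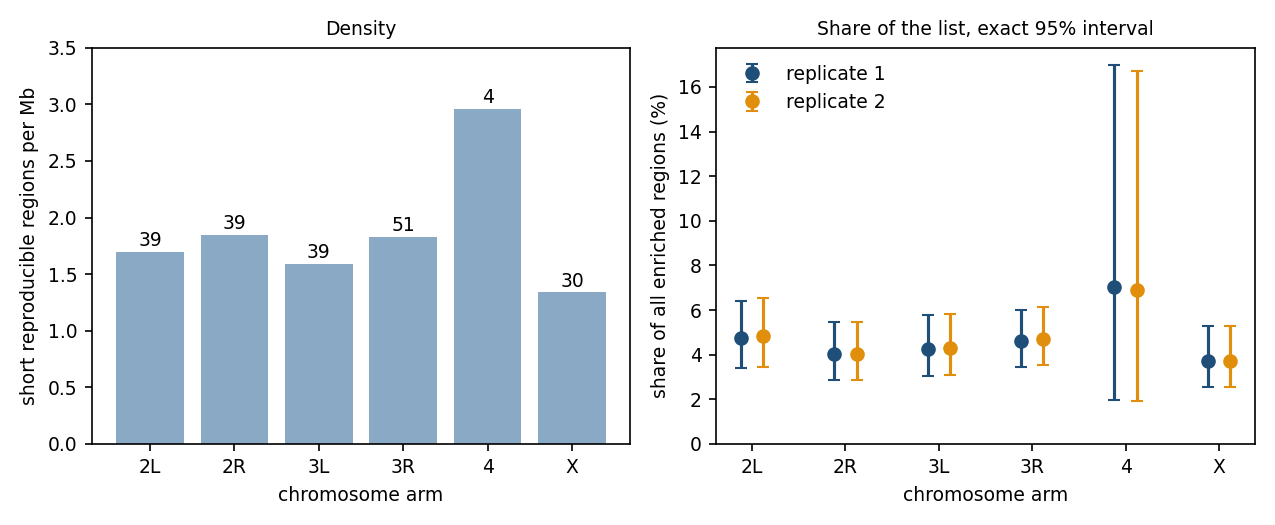
The left panel plots short reproducible regions per Mb of each chromosome arm, with the number of regions above each bar. The right panel plots them as a share of all enriched regions of each replicate, with exact 95% intervals as bars, which overlap among all 6 arms.

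As a share of all enriched regions, members made up 3.73% on X in replicate 1 (interval 2.53 to 5.28) and 4.40% on the autosomal long arms 2L, 2R, 3L and 3R (3.77 to 5.10). In replicate 2 the shares were 3.73% (2.53 to 5.28) and 4.46% (3.82 to 5.17). These intervals overlap, and the difference was not tested. The direction depended on requiring both replicates. Short regions of any kind made up 10.06% of regions on X and 9.95% on the autosomal arms in replicate 1, and 9.83% and 9.37% in replicate 2. The members of chromosome 4 were 7.02% of its 57 regions in replicate 1 (1.95 to 17.0) and 6.90% of 58 in replicate 2 (1.91 to 16.7), and these intervals span the shares of every other arm.

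Within arms, the members did not gather in a few places. The 5 long arms held 117 complete windows of 1 Mb, and 25 of them had no member, 33 had 1, 30 had 2, 18 had 3 and 11 had 4 or more. The highest count was 5, reached in 4 windows, namely 2R 18000001 to 19000000, 3L 2000001 to 3000000, 3R 3000001 to 4000000 and 3R 21000001 to 22000000. Those windows held 58, 33, 34 and 43 enriched regions of replicate 1. Across windows the number of members and the number of all regions had a Spearman rho of 0.19 (n = 117 windows of one library).

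Short reproducible regions lay farther from long ones than regions of 2 to 5 kb did, with long meaning 5 kb or more in the same list. The median distance from a member to the nearest long region, edge to edge, was 37.99 kb in replicate 1 and 38.03 kb in replicate 2. For the regions of 2 to 5 kb it was 20.8 and 21.9 kb. The middle 50% of members lay 13.04 to 79.2 kb from a long region in replicate 1 and 13.5 to 90.3 kb in replicate 2, against 5.80 to 56.3 kb and 6.21 to 59.6 kb for the regions of 2 to 5 kb. The 4 members outside the arms had no long region on their sequence and so no distance. Members also had lower scores than the regions of 2 to 5 kb, as given below, and distances were not compared at like scores.

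**Figure D2:**
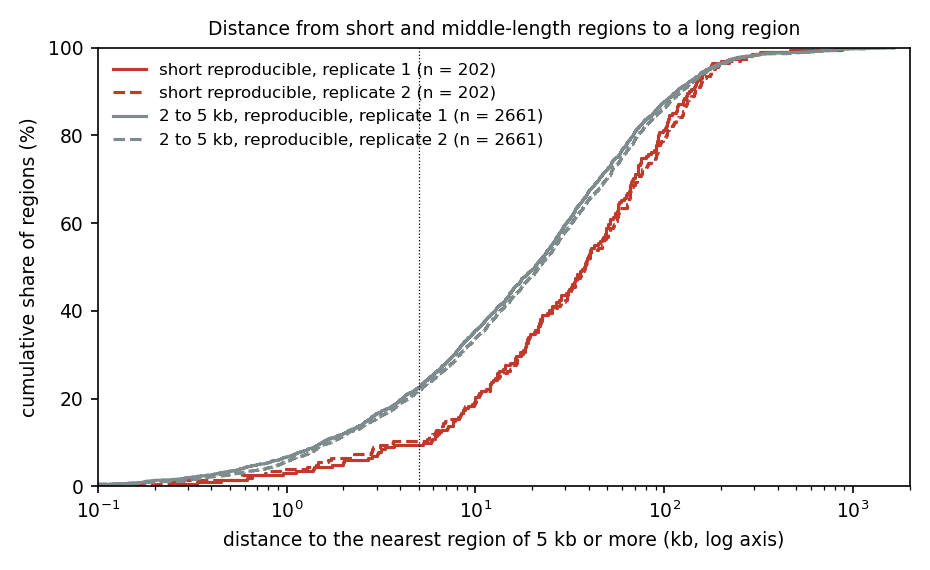
The cumulative share of regions is plotted against the distance to the nearest region of 5 kb or more, on a log axis in kb, for short reproducible regions (red) and reproducible regions of 2 to 5 kb (grey), with replicate 1 solid and replicate 2 dashed; distances under 0.1 kb are drawn at 0.1 kb. The dotted line marks 5 kb, and the red lines run below the grey ones from there to beyond 100 kb.

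Few members flanked a long region. A long region stood within 5 kb of 19 of 206 members in replicate 1 (9.22%, interval 5.64 to 14.03) and of 21 of 206 in replicate 2 (10.2%, 6.42 to 15.2). All enriched regions together gave 25.3% for replicate 1 and 24.7% for replicate 2. Over the reproducible regions of 2 to 5 kb it was 21.99% (20.4 to 23.6) and 21.3% (19.8 to 22.9), so the intervals of members and of that set did not overlap in either replicate. At 2 kb the shares were 5.34% for members and 11.8% for the regions of 2 to 5 kb in replicate 1, and 6.31% and 11.2% in replicate 2. At 20 kb they were 33.98% and 48.3% in replicate 1, and 33.98% and 47.04% in replicate 2.

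The lower share near long regions was seen on each of the 5 long arms. In replicate 1 the share of members within 5 kb of a long region was 12.8% on 2L, 7.69% on 2R, 7.69% on 3L, 7.84% on 3R and 13.3% on X. The regions of 2 to 5 kb had 20.4%, 23.2%, 21.9%, 24.2% and 23.9% on the same arms. In replicate 2 the members had 10.3%, 12.8%, 10.3%, 7.84% and 13.3%, and the regions of 2 to 5 kb 19.7%, 22.1%, 20.3%, 22.9% and 25.7%. Each arm rests on 3 to 5 members near a long region, and the interval of the members reached the share of the longer set on 2L and X in both replicates and on 2R and 3L in replicate 2, but on 3R in neither. None of the 4 members on chromosome 4 lay within 5 kb of a long region, and 2 of 42 regions of 2 to 5 kb did so (4.76%). All enriched regions of replicate 1 had 22.9% on 2L, 26.5% on 2R, 22.4% on 3L, 25.9% on 3R and 32.3% on X. Those of replicate 2 had 22.3%, 26.3%, 22.5%, 24.9% and 31.2%. On chromosome 4 the share over all enriched regions was 5.26% in replicate 1 and 5.17% in replicate 2.

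Members also stood farther from enriched regions of any length. The nearest region of any kind was a median of 6.39 kb away in replicate 1 and 6.40 kb in replicate 2. For the regions of 2 to 5 kb it was 3.49 and 3.65 kb, and for all enriched regions 2.99 and 3.07 kb. In replicate 1, 43 of 206 members (20.9%) had no other region within 20 kb, against 12.7% of the regions of 2 to 5 kb. In replicate 2 it was 46 (22.3%) against 12.9%. Over all enriched regions it was 10.9% in each replicate. The surroundings were also less covered. In the 50 kb on either side, for members on the long arms and at least 50 kb from an arm end, enriched regions covered a median of 16.8% in replicate 1 and 16.3% in replicate 2 (n = 196 members). For the regions of 2 to 5 kb the medians were 21.1% and 20.7%. The median number of regions in those flanks was 5 for both sets in both replicates, so the flanks of members held as many regions at the median and less marked sequence. The difference was also present among regions with a close neighbour of some kind. Among regions with any other region within 5 kb, a comparison added after the values had been seen, a long region was within 5 kb of 21.1% of members and 36.3% of the regions of 2 to 5 kb in replicate 1, and of 23.1% and 35.8% in replicate 2.

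The same was seen when distance was set aside and only the order of regions along a sequence was used. A direct neighbour of 5 kb or more was found for 73 of 206 members in replicate 1 (35.4%, interval 28.9 to 42.4) and for 71 of 206 in replicate 2 (34.5%, 28.0 to 41.4). The share over all enriched regions was 47.2% and 46.1%. If the lengths of the other regions on a sequence stood in any order with equal chance, 47.05% of members in replicate 1 and 45.9% in replicate 2 would have such a neighbour, as calculated in closed form. For the regions of 2 to 5 kb the observed shares were 44.2% and 42.7%, against 47.0% and 45.9% under the same calculation. Next, only neighbours within 5 kb were counted and the gaps were kept as found. Then 18 members of replicate 1 had a long neighbour against 28.5 calculated, and 21 of replicate 2 against 28.3. In replicate 1 that was 8.74% (interval 5.26 to 13.5), and the calculated 13.9% lay just above the interval. In replicate 2 it was 10.2% (6.42 to 15.2), and the calculated 13.7% lay inside it. Of the regions of 2 to 5 kb, 574 had a long neighbour within 5 kb in replicate 1 against 542 calculated, and 552 in replicate 2 against 515. With no limit on distance, 6 of 206 members in replicate 1 and 9 of 206 in replicate 2 had a long region on both sides. Of all enriched regions, 397 of 4752 and 374 of 4701 did, and of the 2715 regions of 2 to 5 kb, 192 and 182.

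The neighbours of members were mostly of middle length. Of the 411 direct neighbours in replicate 1, 286 were 2 to 5 kb long (69.6%), 79 were 5 kb or more (19.2%) and 46 were under 2 kb (11.2%). In the whole list these classes took 62.2%, 27.8% and 10.04% of regions. Replicate 2 gave 69.3%, 19.5% and 11.2% of neighbours, against 63.5%, 27.0% and 9.53% of the list. Short regions were thus about as frequent next to a member as in the list. On the arms of replicate 1 there were 41 runs of 2 neighbouring short regions and 7 runs of 3, and none was longer. The first run of 3 along 2L lay from 7608158 to 7701995. It held regions of 1539, 1869 and 1833 bp with scores of 0.30, 0.44 and 0.43, of which the first and second are members.

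Short regions without a short counterpart lay near long ones more often than members did. They numbered 271 in replicate 1, of which 73 (26.9%, interval 21.7 to 32.6) had a long region within 5 kb, and 242 in replicate 2, of which 67 did (27.7%, 22.1 to 33.8). Both intervals span the share over all enriched regions, which was 25.3% in replicate 1 and 24.7% in replicate 2. Most short regions without a short counterpart were thus not near a long region, and the share differed with what the other list held. Of the 22 short regions of replicate 1 that met a long region of replicate 2, 15 (68.2%, interval 45.1 to 86.1) were within 5 kb of a long region in their own list, and the median distance of all 22 was 0.164 kb. In replicate 2 it was 11 of 16 (68.8%, 41.3 to 89.0). In this group a long region of the other list covers the place itself, so its share is not independent of the grouping. The rule for members leaves these regions out, and how much of the lower share of members comes from the rule was not tested. Short regions with no counterpart lay near a long region in 44 of 187 cases in replicate 1 (23.5%, 17.6 to 30.3) and 30 of 112 in replicate 2 (26.8%, 18.9 to 35.98). Taken over all short regions, with or without a counterpart, 92 of 477 in replicate 1 (19.3%, 15.8 to 23.1) and 88 of 448 in replicate 2 (19.6%, 16.1 to 23.6) lay within 5 kb of a long region. All regions of 2 to 5 kb gave 22.95% (21.4 to 24.5) and 23.03% (21.5 to 24.6). The difference that members showed in the share within 5 kb was therefore mostly lost when the second replicate was not asked for, and the intervals then overlapped. The median distance to a long region was still longer for all short regions, at 24.7 kb in replicate 1 and 23.9 kb in replicate 2. All regions of 2 to 5 kb had 19.4 and 20.6 kb. Regions of 2 to 5 kb without a counterpart of their class also lay near long regions more often than those with one, at 33.9% (27.9 to 40.3) in replicate 1 and 40.7% (34.7 to 46.8) in replicate 2.

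**Figure D3:**
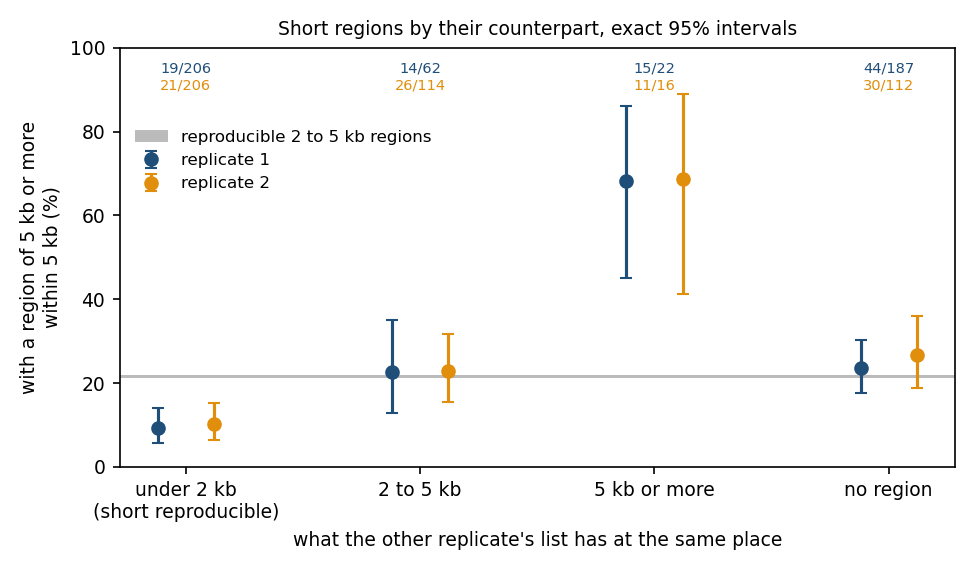
Short regions of each replicate are grouped by what the other replicate's list holds at the same place, and the share with a region of 5 kb or more within 5 kb is plotted with its exact 95% interval and its counts. Short reproducible regions are lowest, at 9.22% and 10.2%, below the grey band of the reproducible regions of 2 to 5 kb, and short regions whose counterpart is long are highest, at 68.2% and 68.8%. The groups were set by the other list, so these shares are not independent of the grouping.

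Distances of single members were mostly the same in both replicates. Of the 202 members with a distance, 164 (81.2%) had values within 1 kb of each other, and the median difference was 169 bp. A total of 17 were within 5 kb of a long region in both replicates, 2 in replicate 1 alone and 4 in replicate 2 alone. For 23 members the distance changed by over 10 kb. Such agreement is not given here for other regions, so it cannot be read as particular to members. At X 2246704 to 2248700 the distance was 7.19 kb in replicate 1 and 81.6 kb in replicate 2.

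The members nearest to a long region in replicate 1 were 3L 15506979 to 15508805 (252 bp away, and 284 bp in replicate 2), X 19525507 to 19526935 (336 and 247 bp) and 2L 5804712 to 5806501 (450 and 580 bp). Their scores were 0.28 and 0.35, 0.44 and 0.60, and 0.22 and 0.17. Those farthest from one were 2R 428468 to 429967 (871 kb, and 870.3 kb in replicate 2), X 22409085 to 22410716 (465 and 523 kb) and 2R 974940 to 976826 (324 kb in each). Their scores were 0.12 and 0.29, 0.28 and 0.19, and 0.44 and 0.46. In both replicates, 38 members were more than 100 kb from any long region. No such count is given here for all enriched regions, so it cannot be read as particular to members. Within 50 kb, 57.8% of members in replicate 1 and 55.8% in replicate 2 had a long region. Over all enriched regions it was 73.7% and 72.1%.

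Scores of members were low. Length and score are linked in these lists, so the scores are a description and were not tested. The median was 0.41 in replicate 1, with the middle 50% from 0.34 to 0.47, and 0.38 in replicate 2, from 0.32 to 0.45. The regions of 2 to 5 kb had medians of 1.48 and 1.34. Their lowest score was 0.401 in replicate 1 and 0.394 in replicate 2, and 97 and 116 members lay under it. The median member stood at percentile 4.50 of all scores in replicate 1 and 4.03 in replicate 2. A score of 0.5 or more was reached by 40 of 206 members in replicate 1 and 26 of 206 in replicate 2. Over all enriched regions even the 10th percentile was above 0.5, at 0.520 and 0.504. Within the members, length and score were only weakly related, with a Spearman rho of 0.22 in replicate 1 and 0.17 in replicate 2, against 0.51 in each for the regions of 2 to 5 kb. Scores of the replicates had a Spearman rho of 0.55 and a Pearson r of 0.72 over the 206 members, against 0.96 for both over the regions of 2 to 5 kb, whose scores span a wider range. All of these are across regions of one antibody's libraries, which share depth and are not independent.

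**Figure D4:**
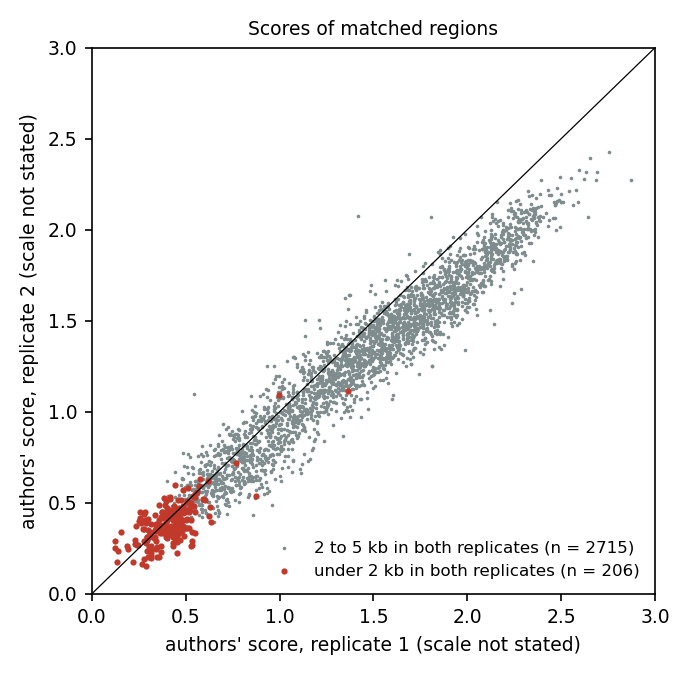
The authors' score of each matched region in replicate 2 is plotted against its score in replicate 1, for regions under 2 kb in both replicates (red, n = 206) and of 2 to 5 kb in both (grey, n = 2715), with the line of equal scores. Most red points lie under 0.5 on both axes, and the grey points fall below the line at high scores.

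A score of 1 or more was reached by 1 member in replicate 1 and 2 in replicate 2, while the median over all enriched regions was 1.55 and 1.43. The 5 members of highest mean score were taken by rule. The highest mean score belonged to 3RHet 66777 to 68774, with 1.37 in replicate 1 and 1.11 in replicate 2, which are percentiles 40.3 and 32.1 of the lists. It was the first region of that scaffold in replicate 1, and its only neighbour, of 2 to 5 kb, was 1635 kb away. The second was 2L 21474091 to 21475596, with 0.998 and 1.09, between regions of 2 to 5 kb at 3.03 and 3.06 kb and 158 kb from a long region. The next were X 16460206 to 16461892 (0.77 and 0.72), U 6668729 to 6670719 (0.87 and 0.54) and X 17617198 to 17618622 (0.62 and 0.62). The X region at 16460206 had a long region 16.3 kb away as its direct neighbour. The U region had a short neighbour 0.491 kb away. Of these 5, 2 were outside the arms, where 4 of the 206 members lay.

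Members on X scored higher than those on the autosomal arms. The median was 0.50 in replicate 1 (middle 50% from 0.40 to 0.55, n = 30) and 0.46 in replicate 2 (0.39 to 0.52). On the autosomal arms it was 0.40 (0.33 to 0.46, n = 168) and 0.37 (0.31 to 0.43), and the medians of the 4 single arms lay between 0.38 and 0.42 in replicate 1 and between 0.35 and 0.37 in replicate 2. The X members were not longer, with median lengths of 1688.5 and 1668 bp against 1734 and 1714 bp. The regions of 2 to 5 kb gave 1.48 on X and 1.49 on the autosomal arms in replicate 1, and 1.36 and 1.34 in replicate 2. The ranges of X and autosomal members overlapped widely, and the difference was not tested. The sex of the larvae is not stated, and its part in this difference was not tested.

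Scores of members were similar near to and far from long regions. In replicate 1 the median score was 0.43 within 5 kb (n = 19), 0.40 from 5 to 20 kb (n = 51), 0.42 from 20 to 100 kb (n = 94) and 0.40 beyond (n = 38). In replicate 2 it was 0.39 (n = 21), 0.36 (n = 49), 0.40 (n = 90) and 0.35 (n = 42). The order of the 4 groups was not the same in both replicates.

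The 4 members on chromosome 4 had scores close to those of other members. They were 4 1009357 to 1011302 (0.44 and 0.46), 4 245882 to 247399 (0.45 and 0.40), 4 853579 to 855575 (0.46 and 0.32) and 4 1181173 to 1182749 (0.38 and 0.38), the last named outside the rule for named regions so that all 4 are shown. Their nearest long regions were 33.1, 85.2, 167 and 126 kb away in replicate 1. On the scaffolds, 2RHet 3182481 to 3184234 scored 0.30 and 0.31, and the second U region, 5771001 to 5772679, scored 0.28 and 0.40.

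In the list that combined the replicates, every member was found again, and most were called slightly longer. All 2715 regions of 2 to 5 kb were found again too, and 92.0% in each replicate met a combined region of their own class. Their change in length is not given here, so lengthening cannot be read as particular to members. The combined region was longer than both replicate regions for 200 of 206 members (97.1%), by a median of 120.5 bp over the longer of them. Its median length was 1952 bp, with the middle 50% from 1851 to 2041 bp. It stayed under 2 kb for 130 members (63.1%, interval 56.1 to 69.7), was 2 to 5 kb for 71 (34.5%) and 5 kb or more for 5 (2.43%). Of the 76 that crossed 2 kb, 60 stayed under 2.5 kb. Members that crossed had been longer to begin with, with a median mean length of 1808 bp against 1673 bp. The combined score was lower than both replicate scores for 164 of the 206, with a median of 0.31. How the lists were combined is not stated, so scores of the combined and single lists may not share a scale.

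**Figure D5:**
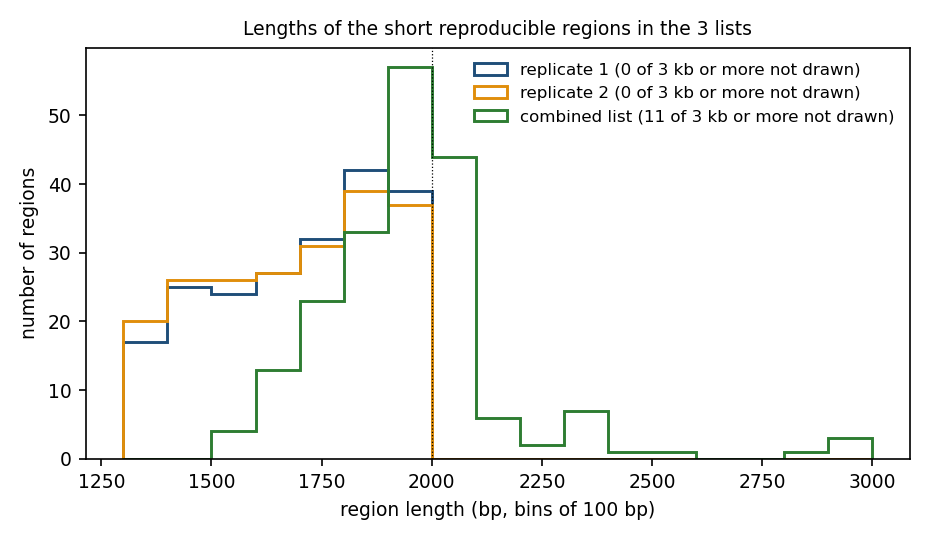
The number of short reproducible regions is plotted by region length, in bins of 100 bp, in replicate 1, replicate 2 and the combined list, and the dotted line marks the limit of 2000 bp. The combined lengths are moved towards longer values and pass the limit for 76 of 206 regions, of which 11 of 3 kb or more are not drawn.

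The 5 members inside a combined region of 5 kb or more were 2L 8093000 to 8094346, 2R 11444931 to 11446512, 3L 136348 to 138092, 3R 20715188 to 20717066 and X 19525507 to 19526935. Their combined regions were 14.3, 6.24, 10.07, 7.03 and 16.8 kb long and scored 1.45, 0.35, 1.36, 0.94 and 2.05. In replicate 1 they had stood 656, 8227, 956, 24535 and 336 bp from a long region, and in replicate 2 they stood 2824, 8317, 770, 156 and 247 bp from one. Except at 2R, a long region was thus within 1 kb in at least one replicate. At the 2L and X regions the replicates also placed the short call differently, with both edges together 1601 and 1232 bp apart.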

How the data were processed

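The files were 3 GFF3 lists of enriched regions, 1 for each H3K4me2 immunoprecipitate and 1 for the combined replicates. Bowtie 0.12.7 aligned the reads, per the submitters' processing notes. The genome build is FlyBase release 5, per the file headers. Each region carries a score deposited by the authors, whose scale is not stated. For the caller, its thresholds, its length limits and the read depth, nothing is stated. The 3 depleted regions of the combined list were left out. Coordinates count from 1 with both ends included.

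Distances are the bases between edges of regions of one list on one sequence. The expected share of long neighbours was calculated exactly per sequence, leaving out the region itself, and the code was checked on made-up lists against full enumeration. Intervals are exact (Clopper-Pearson) at 95%. No sequence or gene was assigned, because no genome of release 5 was used here. Members, lists and comparisons were chosen with earlier results of these data known. Named regions followed a written rule: highest mean score (5), and 3 each of the shortest, nearest to and farthest from a long region, highest scoring on chromosome 4, smallest edge shift, and just inside and outside 2000 bp, plus the longest run of short regions, ties going to the first by sequence and start. Members outside the arms, members in long combined regions and the windows with most members were named after their values were seen. Python 3.11.15, numpy 2.4.6, scipy 1.17.1 and matplotlib 3.10.9 were used.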

Additional observations from a re-analysis of the deposited data

How the results depend on the processing

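The number of members (206) depends on the limits: 71 with a limit 250 bp lower, 743 under 2500 bp, 14 without the lowest 10% of scores in each list, and 448 to 477 without one replicate. The share near a long region, members minus regions of 2 to 5 kb, averaged -11.9 percentage points over the replicates. It was -9.61 with long regions from 3 kb, where the comparison set was regions of 2 to 3 kb. With long regions from 10 kb it was -3.25. It was -5.65 within 2 kb, -14.7 within 10 kb, and -3.66 to -3.39 without one replicate. Among regions with any other region within 5 kb (added after seeing the data) it was -14.0. The share with a long neighbour, observed minus calculated, averaged -11.5 points. It was -11.8 on the 6 arms, -11.8 with regions under 500 bp apart joined, -4.70 with long regions from 10 kb, and -6.56 to -6.54 without one replicate. The median distance of 38.0 kb was 12.6 kb to regions from 3 kb, 167 kb to regions from 10 kb, 40.5 kb to long regions shared by the replicates, 38.3 kb with 50% of each region overlapped, and 23.9 to 24.7 kb without one replicate. The X share minus the autosomal share, -0.70 points, was -5.06 under 2500 bp and 0.114 to 0.458 without one replicate. The share of members in a combined region under 2 kb, 63.1%, was 92.2% with a limit of 2.5 kb and 51.3% to 60.2% without one replicate. The rank agreement of scores kept within its interval under its 3 alternatives. Apart from the X share, no difference changed sign in any alternative. The causes were not tested. No paired analysis was possible because only immunoprecipitates had region lists here. Depth is unknown, so what it limits was not measured.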

Other observations

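The combined list held 714 enriched regions under 2 kb, more than either replicate. Of these, 315 (44.1%) met no region of either replicate, 163 (22.8%) met replicate 1 only, 99 (13.9%) met replicate 2 only and 137 (19.2%) met both. A total of 130 (18.2%) were members. The same shares over all 4991 regions of the combined list are not given here, so these values cannot be read as particular to short regions. A short region called in a single replicate was found under 2 kb in the combined list in 155 of 187 cases in replicate 1 (82.9%, exact 95% interval 76.7 to 87.99) and in 93 of 112 in replicate 2 (83.04%, 74.8 to 89.5), against 63.1% of members (56.1 to 69.7). The single-replicate regions were shorter to begin with, with median lengths of 1556 and 1503 bp against 1726.5 and 1709.5 bp for members. The combined list lacked 4 and 1 of these single-replicate regions and none of the members.

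Regions of replicate 1 scored higher than their match in replicate 2 in 121 of 206 member pairs (58.7%), in 84.2% of pairs of 2 to 5 kb and in 94.1% of pairs of 5 kb or more. Whether the 2 lists share a scale is not stated, and the pattern was not tested.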
